A study of Saccharomyces cerevisiae W303 with 8 samples.

Results

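HO and 9 genes of daughter-cell identity and cell separation were followed in budding yeast (Saccharomyces cerevisiae, W303 background) through 30 min of hyperosmotic stress. The genes were picked by name, with earlier results of these data known: HO (YDL227C), ASH1 (YKL185W), CTS1 (YLR286C), DSE1 (YER124C), DSE2 (YHR143W), DSE3 (YOR264W), DSE4 (YNR067C), SCW11 (YGL028C), EGT2 (YNL327W) and AMN1 (YBR158W). All 10 of 10 were found by open reading frame name among 6228 on the array. Each had 1 probe printed in 2 spots, and all 10 probes passed the filter on dim probes, with Cy5 and Cy3 signals that the scanner software flagged as well above background on each of the 8 arrays. The cdc55 strain is labelled msn2msn4cdc55. This names loss of the gene for Cdc55, a B subunit of the phosphatase PP2A, and of the genes for the stress factors Msn2 and Msn4. The control strain is labelled msn2msn4. Both carried the plasmid pMsn2pMsn2DNES, so neither strain was wild type. By its name the plasmid supplies a form of Msn2 (Msn2DNES), so by the labels neither strain was without Msn2. Cultures in YPD at 30 °C were sampled at 0 min and after 10, 20 and 30 min in 0.4 M NaCl, with 1 array for each of these samples. There were no replicate cultures. Sample RNA carried Cy5 and was hybridised against Cy3-labelled RNA of the untreated control strain, so values below are log2 ratios to that reference unless stated.

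When a budding yeast cell divides, the daughter must digest the septum that joins it to its mother. Chitinase and glucanase genes are switched on for this in the daughter at the end of mitosis. The transcription factor Swi5 enters the nucleus at the same stage and activates HO, EGT2 and ASH1, among others. HO encodes the endonuclease that starts mating-type switching. It is expressed in mother cells in late G1 through the factor SBF, and is kept off in daughters by the repressor Ash1. W303 strains carry a non-functional ho allele, whose message the probe still reads. Each of these genes is read in a limited stretch of the cell cycle, which is not the same for all. For each, fewer cells in its stretch and less RNA per cell cannot be told apart in whole-culture RNA.

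The deposited scanner files of 2 pairs of samples were exchanged: those of control at 10 min and cdc55 at 0 min, and those of control at 30 min and cdc55 at 20 min. After exchanging them back, 5646 of 5742 complete rows of the authors' deposited value table equalled 1 probe in all 8 columns within 0.01, against 2 rows for the files as attached. The match was made on values alone, and 0 rows bore the name of the probe they equalled. The 0 min arrays of both strains and the control array at 10 min came from the 3 files without a scanner settings block. In the cdc55 strain the file type and the response to NaCl cannot be told apart; in the control strain they are only partly separate, and the part of the file type in these results was not tested. Median Cy5 brightness per array ran from 5523 to 13700 units. On the control array at 0 min, where sample and reference were the same strain, the SD over 6103 probes was 0.15. There 8 of the 10 genes lay within that distance of 0. The 2 spots of a probe lay at most 0.21 from their mean for any of the 10 genes on any array. The mating type is not given by the labels. HO is silent in a/alpha diploids, and markers of both haploid types were examined. All 4 MATalpha markers (MF(ALPHA)1, MF(ALPHA)2, STE3, SAG1) and all 6 haploid markers were well above background in Cy5 on all 8 arrays. Of the 5 MATa markers 3 were so on all 8 arrays, AGA2 on 6 and the pheromone gene MFA2 on 4. The 2 sets differed widely in brightness. On the control array at 0 min the MATalpha markers read from 16546 (SAG1) to 103302 (MF(ALPHA)1) units in Cy5. The MATa markers read from 122 (MFA2) to 710 (BAR1) units there.

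**Figure D1:**
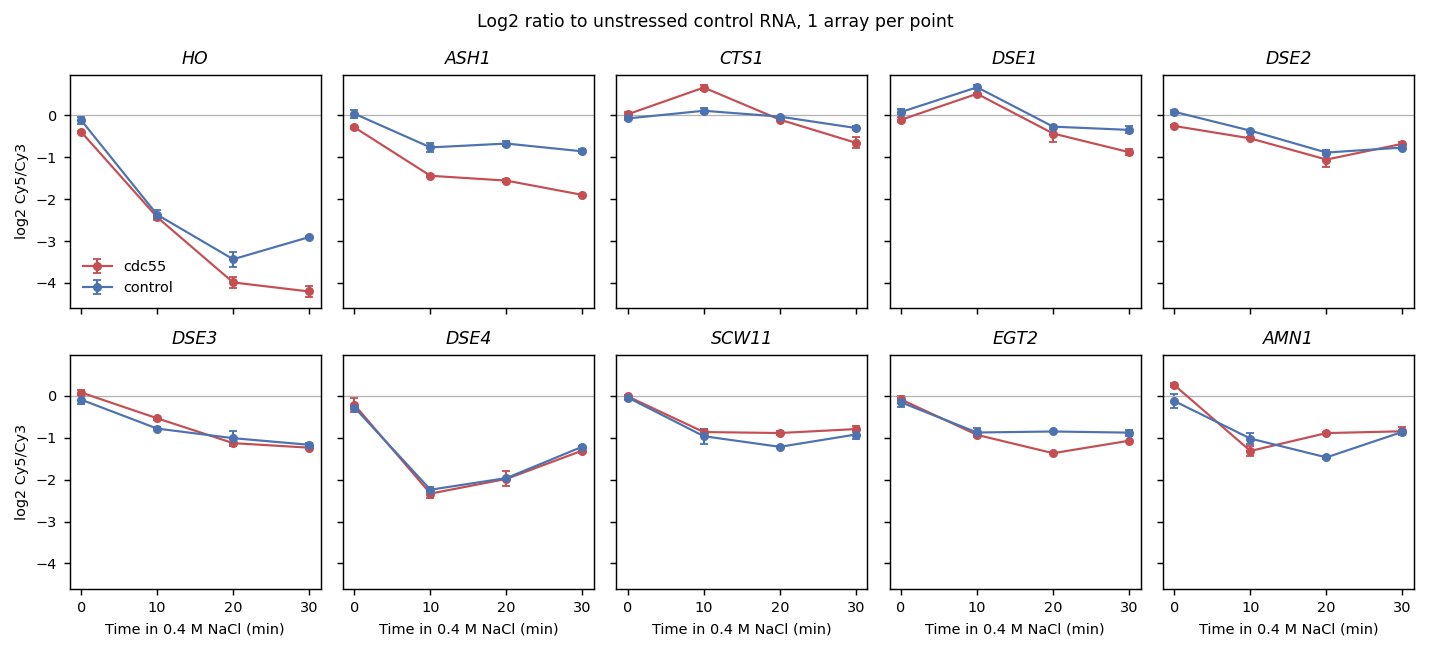
Log2 ratio of sample (Cy5) to untreated control RNA (Cy3) for each of the 10 genes against time in 0.4 M NaCl (min), 1 point per array for the cdc55 and control strains. Error bars run from one spot of the probe to the other. HO reached -4.21 in the cdc55 strain and -3.43 in the control strain, while CTS1 and DSE1 were above 0 at 10 min and below 0 at 30 min in both strains.

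With NaCl HO and DSE4, the septum glucanase gene, fell most of the 10, and the chitinase gene CTS1 averaged close to its starting level. HO had log2 ratios of -0.39, -2.43, -3.99 and -4.21 at 0, 10, 20 and 30 min in the cdc55 strain, and of -0.11, -2.37, -3.43 and -2.91 in the control strain. The lowest value came at 30 min in the cdc55 strain and at 20 min in the control strain. In raw brightness its Cy5 spots read 30319, 3983, 1628 and 1320 units in the cdc55 strain, and 18493, 3648, 1443 and 3964 in the control strain. The Cy3 reference spots of the same probe stayed between 10503 and 16761 units. Relative to its own 0 min array HO was 14.1-fold lower at 30 min in the cdc55 strain and 6.93-fold lower in the control strain. Averaged over 10, 20 and 30 min the change was -3.15 ± 0.34 (SE) in the cdc55 strain and -2.79 ± 0.34 in the control strain (limma adjusted p = 0.0120 and 0.0111). Of the 4 MATalpha markers 1 fell in the cdc55 strain, where 1.31% of all probes were called lower, and 2 fell in the control strain, where 6.01% were. Their median change was -0.86 in the cdc55 strain and -0.99 in the control strain, and STE3 was at -0.11 and -0.05. Their part in the HO result was not tested.

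DSE4, also called ENG1, encodes the endo-1,3-beta-glucanase that dissolves the septum from the daughter side. Its log2 ratios were -0.21, -2.33, -1.98 and -1.30 at 0, 10, 20 and 30 min in the cdc55 strain, and -0.28, -2.24, -1.96 and -1.21 in the control strain. Both strains were lowest at 10 min and had regained part of the loss by 30 min, with values at each time that differed by at most 0.09. The mean change with NaCl was -1.66 ± 0.17 in the cdc55 strain (limma adjusted p = 0.00987) and -1.53 ± 0.17 in the control strain (adjusted p = 0.00777).

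ASH1, the daughter-specific repressor of HO, had log2 ratios of -0.29, -1.44, -1.56 and -1.90 at 0, 10, 20 and 30 min in the cdc55 strain, and of 0.04, -0.76, -0.67 and -0.86 in the control strain. All 3 stressed values of the cdc55 strain lay below all 3 of the control strain. ASH1 fell by 1.35 on the log2 scale in the cdc55 strain (SE 0.19, limma adjusted p = 0.0230) and by 0.81 in the control strain (SE 0.19, adjusted p = 0.0442). DSE3, a daughter-specific protein of the bud neck, was at 0.08, -0.53, -1.13 and -1.24 in the cdc55 strain and at -0.09, -0.78, -1.01 and -1.17 in the control strain. It was lower at each later time in both. Its mean change was -1.05 ± 0.19 in the cdc55 strain and -0.90 ± 0.19 in the control strain (limma adjusted p = 0.0440 and 0.0358).

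For 3 more genes the test passed in one strain and not in the other. EGT2, a cell wall protein that acts in separation, had log2 ratios of -0.08, -0.93, -1.37 and -1.07 in the cdc55 strain, and of -0.15, -0.87, -0.85 and -0.88 in the control strain. Its mean change passed in the cdc55 strain (-1.04 ± 0.20, limma adjusted p = 0.0497) and not in the control strain (-0.71 ± 0.20, adjusted p = 0.0641). The cdc55 call was lost without the filter on dim probes (limma adjusted p = 0.0524) and when the variance was let follow brightness (adjusted p = 0.0530). The control change of EGT2 passed with arrays centred on their medians, with the ratio of the Agilent software and without the 10 min arrays. In these settings its cdc55 call was kept. SCW11, a cell wall protein related to glucanases, was at -0.01, -0.86, -0.88 and -0.79 in the cdc55 strain and at -0.04, -0.96, -1.22 and -0.92 in the control strain. It passed in the control strain (-0.996 ± 0.18, adjusted p = 0.0249) and not in the cdc55 strain (-0.83 ± 0.18, adjusted p = 0.0633). DSE2, a secreted protein of the daughter side of the septum, was at -0.25, -0.55, -1.05 and -0.68 in the cdc55 strain and at 0.09, -0.36, -0.89 and -0.77 in the control strain. It passed in the control strain (-0.76 ± 0.18, adjusted p = 0.0470), against -0.51 ± 0.18 in the cdc55 strain (adjusted p = 0.15). The difference in response, tested itself, passed for none of these 3 genes (adjusted p = 1 for each).

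AMN1, an inhibitor of the mitotic exit network that is made in daughters, had log2 ratios of 0.26, -1.31, -0.89 and -0.84 in the cdc55 strain, and of -0.12, -1.02, -1.47 and -0.86 in the control strain. All 6 stressed values lay below both 0 min values. The mean changes of -1.27 ± 0.27 in the cdc55 strain and -0.99 ± 0.27 in the control strain did not pass (limma adjusted p = 0.0633 and 0.0598). Both passed with arrays centred on their medians (adjusted p = 0.0231 and 0.0344), with the ratio of the Agilent software (0.0422 and 0.0374) and without the 10 min arrays. Without the 30 min arrays only the cdc55 change passed (0.0459), and without the 20 min arrays neither did (0.162 and 0.209).

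CTS1 and DSE1 followed another course. CTS1 encodes the endochitinase that cuts the primary septum, and DSE1 a daughter-specific protein of unsettled function. CTS1 was at 0.03, 0.67, -0.10 and -0.65 at 0, 10, 20 and 30 min in the cdc55 strain, and at -0.07, 0.11, -0.03 and -0.30 in the control strain. DSE1 was at -0.10, 0.52, -0.43 and -0.88 in the cdc55 strain and at 0.08, 0.67, -0.27 and -0.35 in the control strain. Both genes were highest at 10 min and lowest at 30 min in each strain. Averaged over the 3 stressed times this gave -0.06 ± 0.28 for CTS1 and -0.16 ± 0.19 for DSE1 in the cdc55 strain, against 0.00 ± 0.28 and -0.06 ± 0.19 in the control strain. None of these averages passed (limma adjusted p from 0.647 to 1).

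**Figure D2:**
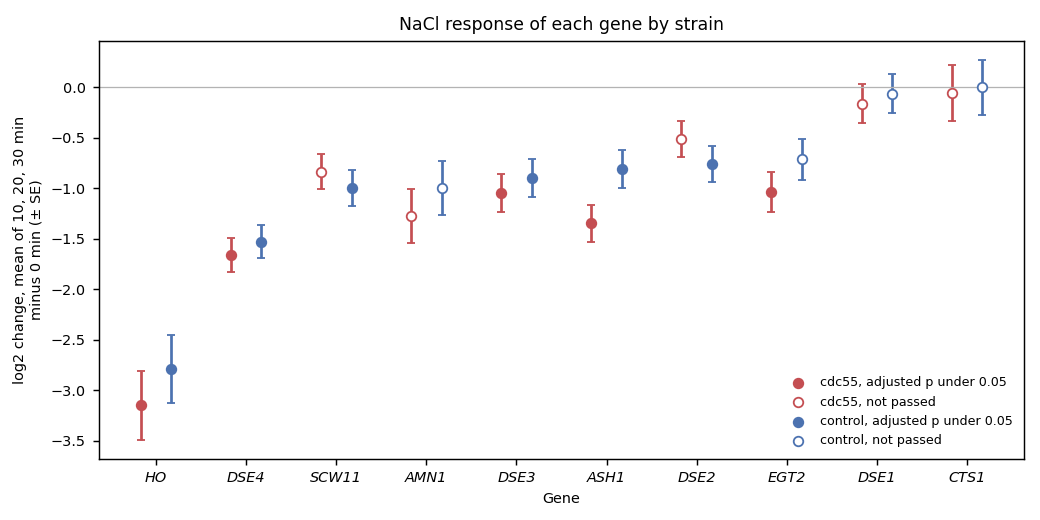
Log2 change with NaCl, as the mean of 10, 20 and 30 min minus 0 min (± SE of the moderated fit), for the 10 genes in the cdc55 and control strains. Filled points passed at an adjusted p under 0.05; the values run from -3.15 for HO in the cdc55 strain to 0.00 for CTS1 in the control strain.

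In all, 5 of the 10 genes fell with NaCl in the cdc55 strain, where 4.19% of all probes were called and 1.31% were called lower. In the control strain 6 of 10 fell, where 13.8% were called and 6.01% were called lower. None was called higher in either strain, against 2.88% and 7.78% of all probes. The 10 genes had a median change of -1.04 in the cdc55 strain and -0.85 in the control strain, beside 0.01 and 0.00 over all probes tested. These p-values measure how the strain difference varied over the 3 stressed times and hold no spread between cultures. Without the 20 min arrays 0 of the 11 calls remained (adjusted p from 0.122 to 0.269 in the cdc55 strain and from 0.0985 to 0.256 in the control strain). In that setting 0.213% and 0.541% of all probes were called, and the changes were close in size, with HO at -2.93 in the cdc55 strain and -2.52 in the control strain. With the files as attached 0 calls remained. Without the 30 min arrays DSE2 and DSE3 narrowly missed in the control strain (adjusted p = 0.0506 and 0.0534). Without the 10 min arrays 7 of the 10 genes passed in the cdc55 strain and 8 in the control strain. In that setting calls rose over all probes too, to 15.6% in the cdc55 strain and 28.6% in the control strain.

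The opposite courses between 10 and 30 min were tested in the same fit as 30 min minus 10 min, averaged over both strains, a contrast added after the values were seen. DSE1 fell by 1.21 on the log2 scale over these 20 min (SE 0.17, limma adjusted p = 0.0226). DSE4 rose by 1.03 ± 0.14 (adjusted p = 0.0226). HO at -1.15 ± 0.29, CTS1 at -0.87 ± 0.24 and DSE3 at -0.54 ± 0.16 did not pass (adjusted p = 0.0668, 0.0772 and 0.0943). Both strains had the same sign for each of these 5 genes. Over all probes 7.77% were called in this contrast, 3.36% higher and 4.41% lower. Leaving out the 20 min arrays ended both calls (adjusted p = 0.103 for DSE1 and 0.108 for DSE4), and with the files as attached DSE4 turned to -0.37. For HO, centring arrays on their medians instead of using loess gave -1.09 with an adjusted p of 0.0464.

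**Figure D3:**
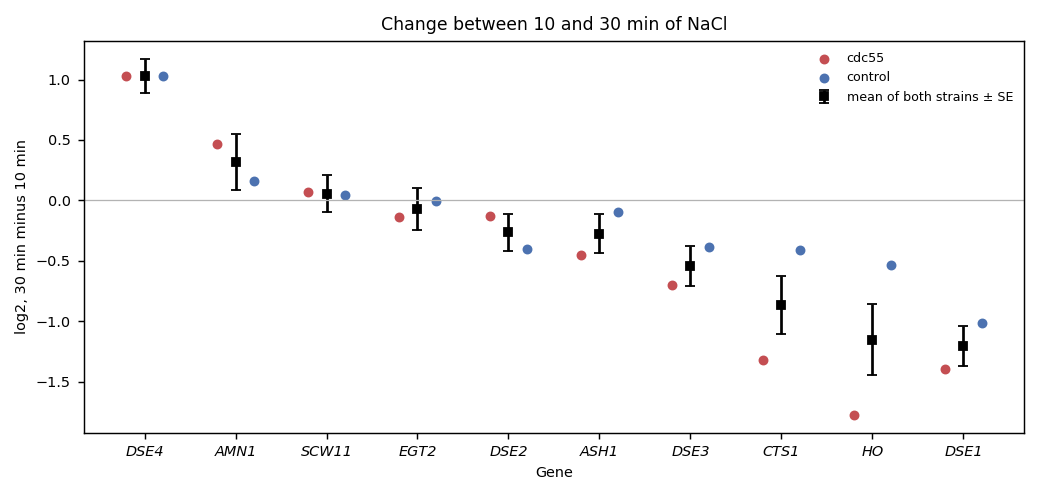
Log2 change from 10 to 30 min of NaCl for each of the 10 genes: coloured points are the cdc55 and control strains (1 array at each time), black squares the mean of both ± SE. DSE4 rose by 1.03 while DSE1 was at -1.21 and HO at -1.15.

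The second question was whether loss of Cdc55 altered these genes. Before NaCl none of the 10 was called different between the strains, where 0.0492% of all probes were. The differences, cdc55 minus control, ran from -0.34 for DSE2 to 0.38 for AMN1, with 6 genes higher and 4 lower, beside 50.6% and 49.4% of all probes. For ASH1 the difference at 0 min was -0.33, with a 95% interval of -0.89 to 0.23. For HO it was -0.28, with an interval of -1.30 to 0.74, so a change of up to about that size at 0 min was not detectable.

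Under NaCl ASH1 alone of the 10 was called, and was lower in the cdc55 strain by -0.87 ± 0.13 (log2, SE; limma adjusted p = 0.0381), where 2.21% of all probes were called, 0.36% higher and 1.85% lower. Its difference was -0.68 at 10 min, -0.89 at 20 min and -1.04 at 30 min. The call was lost without the 20 min arrays (-0.86, adjusted p = 0.340), without the 30 min arrays (-0.78, adjusted p = 0.136) and with the files as attached (-0.56). The response of ASH1 to NaCl was not shown to differ between strains: that difference was -0.54 ± 0.26, with a 95% interval of -1.19 to 0.10 (adjusted p = 1).

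HO differed most between the strains on the single arrays at 30 min. The difference, cdc55 minus control, was -0.28, -0.06, -0.55 and -1.30 at 0, 10, 20 and 30 min, and at 30 min HO was 2.46-fold lower in the cdc55 strain. Averaged over the stressed times it was -0.64 ± 0.24 and did not pass (limma adjusted p = 0.177). Without the 10 min arrays it was -0.93 and passed (adjusted p = 0.00955), but then 16.4% of all probes were called, against 2.21% with all arrays. At 30 min HO and ASH1 were the only 2 of the 10 genes that differed by more than 2-fold between the single arrays, where 9.16% of all probes did. At 0, 10 and 20 min none did, with 2.06%, 1.85% and 4.36% of all probes past that size. The response of HO to NaCl was not shown to differ between strains. That difference was -0.36 ± 0.48, with a 95% interval of -1.53 to 0.82.

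The 8 genes other than HO and ASH1 were, like HO, not called between strains under NaCl. The 95% intervals of the stressed strain difference were -0.36 to 0.22 for DSE4, -0.12 to 0.49 for SCW11, -0.40 to 0.23 for DSE2 and -0.31 to 0.35 for DSE3. For EGT2 the interval was -0.60 to 0.09 and for DSE1 -0.62 to 0.05. CTS1 ranged from 0.55 higher in the cdc55 strain at 10 min to 0.35 lower at 30 min, with an interval for the mean of -0.43 to 0.52. AMN1 changed sign from time to time, with differences of -0.30, 0.58 and 0.01 at 10, 20 and 30 min. Over all 10 genes limma called 0 in the test of the difference in response, as it did over all 6103 probes (0% called, 81 at an unadjusted p under 0.05).

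**Figure D4:**
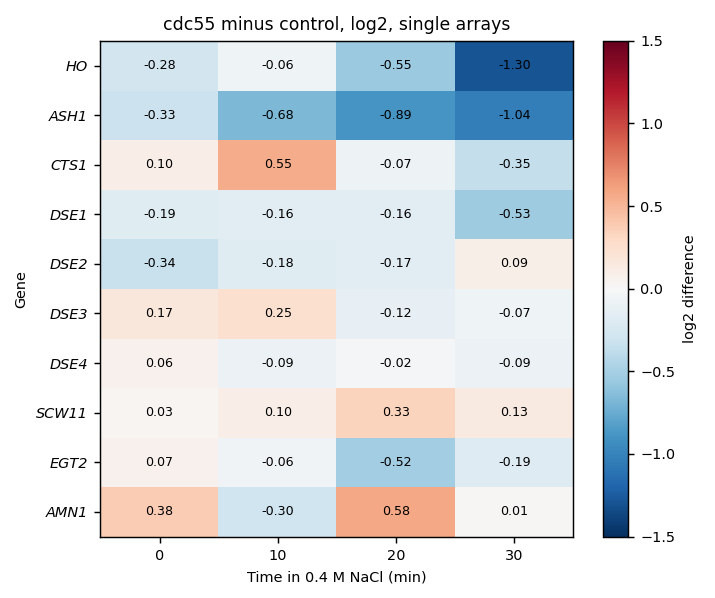
Difference between single arrays, cdc55 minus control, in log2 for each of the 10 genes (rows) at each time in NaCl (columns, min), with the value printed in each cell. ASH1 was negative at all 4 times and HO reached -1.30 at 30 min, while DSE4 stayed within 0.09 of 0.

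Other genes known to be read at the M/G1 boundary were described from a list of 14. Of these 3 fell with NaCl and 11 did not pass in the cdc55 strain, beside 1.31% of all probes called lower and 2.88% higher. In the control strain 5 fell, 1 rose and 8 did not pass, beside 6.01% of all probes called lower and 7.78% higher. NIS1, a bud neck protein, had a change of -1.40 ± 0.18 in the cdc55 strain and -0.99 ± 0.18 in the control strain (limma adjusted p = 0.0188 and 0.0258). PCL9, a cyclin of the kinase Pho85, had -1.14 ± 0.17 and -1.10 ± 0.17 (adjusted p = 0.0264 and 0.0183). FAA3, a fatty acid activating enzyme, had -1.21 ± 0.17 and -1.07 ± 0.17 (adjusted p = 0.0237 and 0.0196). CHS1, the chitin synthase that repairs the septum after separation, rose in the control strain by 1.37 ± 0.29 (adjusted p = 0.0363). At 0, 10, 20 and 30 min it was at 0.43, 2.70, 1.89 and 0.18 in the cdc55 strain, and at 0.03, 2.03, 1.65 and 0.53 in the control strain, with its highest value at 10 min, as for CTS1 and DSE1. RME1, a repressor of meiosis, had the widest strain gap of the list under NaCl at -1.37 ± 0.27, which did not pass (adjusted p = 0.0633). The list's median strain difference under NaCl was -0.17, with 12 of 14 genes negative and 0 called, beside a median of 0.01 over all probes. Over all probes 2.21% were called, and 51%, 46% and 54.2% were below 0 at 10, 20 and 30 min.

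The gene for Swi5 did not pass with NaCl in either strain or between strains. SWI5 was at -0.26, -1.25, -1.25 and -0.09 at 0, 10, 20 and 30 min in the cdc55 strain, and at -0.15, -0.76, -0.97 and -0.50 in the control strain. Its message was lowest at 10 and 20 min in both strains. Of 12 regulators of the HO promoter, which include SWI4 and SWI6 for SBF, none passed in any of these contrasts. Over all probes 4.19% were called with NaCl in the cdc55 strain and 13.8% in the control strain. Between strains 2.21% were called under NaCl and 0.0492% at 0 min. SWI4, the DNA-binding subunit of SBF, had a change of -0.72 ± 0.23 in the cdc55 strain and -0.21 ± 0.23 in the control strain (limma adjusted p = 0.127 and 0.570). Its difference in response, -0.52 ± 0.33, did not pass. Of 6 genes for transport of ASH1 mRNA to the daughter 2 fell in the control strain, beside 6.01% of all probes called lower. The 2 genes were PUF6 at -2.38 ± 0.44 and LOC1 at -1.43 ± 0.35 (limma adjusted p = 0.0281 and 0.0486), both of which also act in ribosome assembly. In the cdc55 strain PUF6 was at -1.55 ± 0.44 and LOC1 at -1.43 ± 0.35, which did not pass (adjusted p = 0.105 and 0.0794). The difference in response passed for neither (0.83 for PUF6 and 0.004 for LOC1, adjusted p = 1 for both). PUF6 was at 0.51, -1.97, -1.80 and 0.65 in the cdc55 strain and at -0.15, -2.47, -3.72 and -1.40 in the control strain.

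Late G1 genes of SBF and its relative MBF, the class to which HO belongs by its timing, had strain differences under NaCl below 0 for 11 of 11 genes. The median difference was -0.35, beside 0.01 over all probes, and none passed singly, where 2.21% of all probes did. At 0, 10, 20 and 30 min the median was -0.21, -0.13, -0.21 and -0.74, with 8, 7, 7 and 11 of 11 genes below 0. Over all probes 49.4%, 51%, 46% and 54.2% were below 0 at these times. PCL1, a G1 cyclin, differed by -0.99 ± 0.17 (limma adjusted p = 0.0543) and CLN1, another, by -1.10 ± 0.26 (adjusted p = 0.0881). With NaCl RNR1, a ribonucleotide reductase subunit, was at -1.62 ± 0.29 in the cdc55 strain and -1.21 ± 0.29 in the control strain (adjusted p = 0.0434 and 0.0478). In the control strain TOS4 also fell and PCL1 rose. This made 1 of 11 that fell in the cdc55 strain, beside 1.31% of all probes called lower. In the control strain 2 fell and 1 rose, beside 6.01% called lower and 7.78% called higher.

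Mitotic genes of the CLB2 cluster are read just before the separation genes in the cell cycle. With NaCl 11 of 12 such genes had changes below 0 in each strain, with medians of -0.53 in the cdc55 strain and -0.55 in the control strain. None was called in the cdc55 strain, beside 1.31% of all probes called lower. In the control strain 2 were called lower, beside 6.01% of all probes. Between 10 and 30 min 3 of the 12 rose as DSE4 did, beside 3.36% of all probes. Of the 10 genes followed here, 7 had values below 0 in that contrast. The other 9 did not pass and ran from -0.54 for HST3 to 0.95 for ALK1. Without the 20 min arrays only 7 probes in all were called in this contrast. CLB2, the main mitotic cyclin, was at -0.21, -1.93, -1.38 and 0.35 at 0, 10, 20 and 30 min in the cdc55 strain, and at -0.01, -1.33, -1.61 and -0.39 in the control strain. It rose by 1.61 ± 0.31 from 10 to 30 min (limma adjusted p = 0.0382), CDC20 by 1.37 ± 0.23 and CDC5 by 0.78 ± 0.17.

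Among all other probes, those most like HO over the 8 arrays by Pearson correlation were NIS1 (0.988), POL1, RBH2, CDC45 and HOL1 (0.967). Those most like the mean of the 7 genes CTS1, DSE1, DSE2, DSE3, DSE4, SCW11 and EGT2 were POL1, CDC45, HXT3, RBH2 and HOL1, from 0.994 to 0.973. POL1 and CDC45 act in DNA replication and HXT3 is a hexose transporter. All arrays share 1 reference, and most of the variation over 8 arrays is the common step with NaCl, so these values are a description. Among the 10 genes HO and DSE3 correlated at 0.95 and SCW11 and AMN1 at 0.948. CTS1 and DSE1 correlated at 0.831 with each other and at -0.38 and -0.29 with DSE4.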

How the data were processed

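RNA of 8 samples was measured on 2-colour Agilent arrays, with groups taken from the labels and each strain and time held by 1 array. Per the file headers, each deposited scanner file gives the intensity of spot and local background for Cy5 and Cy3. It also gives a deposited log10 ratio (Cy5 to Cy3) that the scanner software had background-subtracted and dye-normalised. Agilent Feature Extraction 10.5.1.1 made 5 files, per the file headers; the other 3 name no version. Flags for non-uniform spots and spots well above background are 0 or 1, a deposited score of that software. The deposited value table holds log2 values; the authors state neither scale, centring nor direction, and the match to scanner values settled all of them. It was used only to assign 4 exchanged files, a choice known from earlier work on these data.

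Median intensities were corrected with normexp (offset 50) and loess-normalised within arrays in R 4.3.3 with limma 3.58.1, with control and non-uniform spots at weight 0. Each probe took the mean of its spots. After leaving out 12 of 6256 probes with no usable spot on some array, and 141 too dim in Cy5 (above background on under 3 arrays), 6103 were tested. Names came from the RefSeq table, which held 5740 of 6228 names on the array; no coordinates are given, since its assembly is another build than the headers name. Figures were drawn with matplotlib 3.10.9.

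The model had a term per time point and a strain term for 0 min and for NaCl: 6 coefficients, 2 residual and 3.94 prior degrees of freedom. P-values were adjusted by Benjamini-Hochberg over all probes, with a threshold of 0.05. The fit was tested on simulated data. The 10 genes and all lists were chosen with earlier results of these data known; the result of 1 list is not reported here. All 10 genes were named; of each list, genes past a test or with the 2 largest strain differences could be named, as could the 5 probes most like a profile. SWI5 and SWI4, and genes named for the change from 10 to 30 min, were chosen after their values were seen. Arrays limit the precision by their number.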

Additional observations from a re-analysis of the deposited data

How the results depend on the processing

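No paired analysis was possible because each strain and time has 1 array and the labels give no replicate numbers; time is already a term of the model. The tests were rerun with the changes named below, with no background correction, without the filter on dim probes, with probes bright on all 8 arrays only, and with non-uniform spots kept. The change from 10 to 30 min was not rerun without either of its times, and the strain term constant over time was run for the strain difference under NaCl only. For single genes 562 results kept direction and call, 14 gained and 31 lost the call and 43 changed sign. No called value changed sign except DSE4 with the files as attached. The causes were not tested, except that leaving out a time leaves 1 residual degree of freedom.

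Probes called under NaCl between strains numbered 135, against 0 with the files as attached, 208 with an intensity trend in the variance, 398 with median centring, 834 with a strain term constant over time, and 1003, 0 and 29 without the 10, 20 and 30 min arrays. At 0 min they numbered 3, against 0 as attached, 5 with the trend, 20 with median centring, 5 with the Agilent ratio, and 72 and 0 without 10 and 20 min. In the cdc55 response they numbered 256, against 0 as attached, 546 with median centring, and 954, 13 and 926 without 10, 20 and 30 min. Median centring moved that split to 273 higher and 273 lower, against 176 and 80, and that of the strain difference under NaCl to 145 and 253, against 22 and 113. In the control response they numbered 842, against 0 as attached, and 1746 and 33 without 10 and 20 min; median centring gave 539 higher and 658 lower, against 475 and 367. From 10 to 30 min they numbered 474, against 0 as attached, 749 with median centring and 7 without 20 min. For the difference in response, 2 were called without 10 min, against 0.

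With the files as attached these values turned sign. From 10 to 30 min AMN1 was at -0.34, DSE4 at -0.37 and SCW11 at -0.40. The difference in response was 0.59 for AMN1, 0.24 for ASH1, 0.40 for DSE3, 1.73 for DSE4, 0.53 for EGT2 and 1.68 for HO. The cdc55 response was 0.0127 for AMN1, 0.62 for DSE4 and 0.10 for SCW11. The strain difference at 0 min was -0.89 for AMN1, 0.59 for DSE1, -0.69 for DSE3, -1.96 for DSE4, -0.72 for EGT2 and -0.92 for SCW11. Under NaCl it was -0.31 for AMN1, -0.0623 for CTS1, 0.0322 for DSE1, 0.0669 for DSE2, -0.29 for DSE3 and -0.15 for SCW11.

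The other sign changes were of values near 0. In the control response CTS1 was at -0.10 with median centring, and at -0.0921 and -0.0219 without 10 and 20 min; DSE1 was at 0.0818 and 0.12 without 20 and 30 min. In the cdc55 response CTS1 and DSE1 were at 0.26 and 0.15 without 30 min. Under NaCl the strain difference of DSE4 was 0.0338 with median centring, that of DSE3 -0.0542 with the Agilent ratio and -0.0939 without 10 min, that of CTS1 -0.21 without 10 min and that of AMN1 -0.14 without 20 min. With the Agilent ratio DSE4 was at -0.0261 at 0 min, SCW11 at -0.0298 and EGT2 at 0.0082 from 10 to 30 min, and SCW11 at -0.0114 in the difference in response. That difference was 5.7e-04 for CTS1 without 20 min, and 0.14 for CTS1 and 0.0248 for DSE1 without 30 min.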

Other observations

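Markers of mating type were examined because HO is controlled by it. All 4 MATalpha markers were lower in the cdc55 strain at 0 min (median -0.38) and under NaCl (median -0.40). Of 5 MATa markers 5 were higher at 0 min (median 0.28) and 4 under NaCl (median 0.11). Medians over all probes were 0.00 and 0.01. No marker of either set was called between strains, where 0.0492% and 2.21% of all probes were. The part of these differences in the HO result was not tested. Between 10 and 30 min of NaCl 3 of 4 MATalpha markers fell and MF(ALPHA)1 did not pass. Of 5 MATa markers 0 passed, with 3 above 0 and 2 below. SAG1, the alpha-agglutinin gene, was at -0.29, -0.89, -1.97 and -2.38 at 0, 10, 20 and 30 min in the cdc55 strain, and at -0.07, -0.49, -1.64 and -2.01 in the control strain. From 10 to 30 min it changed by -1.503 ± 0.14 (limma adjusted p = 0.0109), STE3, the a-factor receptor gene, by -1.30 ± 0.16 and MF(ALPHA)2, an alpha-factor gene, by -1.78 ± 0.24. Of 6 haploid markers 1 fell and 5 did not pass, with 4 above 0. The 1 was FUS1, a gene for cell fusion in mating, which was at 0.92, 1.85, 1.17 and -0.06 in the cdc55 strain and at 0.16, 1.55, 1.24 and -0.17 in the control strain, and changed by -1.81 ± 0.16 (adjusted p = 0.0109). Over all probes 4.41% were called lower in this contrast, which was added after the values were seen, and without the 20 min arrays 7 probes were called in it in all.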
